A study of Mus musculus with 8 samples.

Results

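A set of 131 autosomal genes held the lowest mRNA levels in *Arid1a* cKO pachytene spermatocytes relative to *Arid1a* WT. The genes were taken from the 21058 genes listed in the count table of the series. The level used was CPM, the count of a gene per 1000000 counts of its library. A gene on chromosomes 1 to 19 entered the set when its mean WT level was at least 10 CPM, when log2((mean cKO CPM + 0.1) / (mean WT CPM + 0.1)) was -2.5 or lower, and when every cKO library lay below every WT library. Of the 8788 autosomal genes that reached 10 CPM in WT, 137 met the other conditions, 6 of these were left out by name (*Pou5f2*, *Piwil1*, *Insl3*, *Tdrd5*, *Spo11* and *Id4*), and the 131 that stayed were 1.49% of the 8788. A further gene named for leaving out, *Aard*, had a log2 ratio of -1.22 and did not meet the conditions. Because the comparison of cKO with WT chose the genes, their differences between genotypes are given as a description, with no test.

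The series holds mRNA libraries of 4 *Arid1a* WT and 4 *Arid1a* cKO samples of pachytene spermatocytes. WT males were *Arid1a* fl/fl or *Arid1a* fl/+, cKO males were *Arid1a* fl/fl; Stra8-Cre Tg/0, and the floxed line was kept on a CD1 background. The *Stra8* promoter drives Cre in spermatogonia, ahead of meiosis, and the study describes Cre activity in these testes as inefficient. By immunofluorescence it found cKO pachytene spermatocytes that lacked ARID1A beside others that still made it. It reports that those without ARID1A arrested at mid-pachynema. Cells came from pooled testes of adult males and were separated by sedimentation (Sta-Put), after which fractions rich in pachytene spermatocytes were picked by light microscopy. The study states that RNA was taken in quadruplicate from frozen pellets of such cells. The sample titles give a genotype and a number and do not tie a library to particular males. Whether the 4 libraries of a genotype come from separate pools of males is not stated, so p-values measure only the spread between these libraries.

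Pachytene is the long stage of meiotic prophase in which homologous chromosomes are fully paired and recombination is completed. Spermatocytes at this stage switch on many genes used later, in the meiotic divisions, in spermatids and in sperm, and also the machinery of PIWI-interacting RNAs (piRNAs), the small RNAs that silence transposons and other transcripts in germ cells. ARID1A is a putative DNA-binding subunit of the canonical BAF complex, a chromatin remodeler that alters the position or make-up of nucleosomes. In cKO pachytene spermatocytes the study found raised accessibility at the starts of autosomal genes whose RNA changed, in either direction. Accessibility at the members was not examined here.

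WT libraries held 18308688 to 22044507 estimated counts and cKO libraries 15850961 to 21626772. *Arid1a* (chr4:133679008-133756769, GRCm38) stood at 107, 133, 132 and 98.5 CPM in the WT libraries and at 72.6, 78.4, 80.1 and 76.9 CPM in the cKO libraries. Its log2 fold change was -0.51 (SE 0.07), with an adjusted p of 2.3e-05 in edgeR's quasi-likelihood test, and transcripts that lack the floxed part can still be counted. Of 17643 genes tested with edgeR, 13048 (74.0%) passed a limit of 0.05 on the p adjusted by Benjamini-Hochberg, 6435 of them higher (36.5%) and 6613 lower (37.5%) in cKO. Markers of round and elongating spermatids summed to 2299 to 2672 CPM in WT and 9930 to 10296 CPM in cKO, markers of Sertoli cells to 679 to 799 CPM in WT and 205 to 212 CPM in cKO, and markers of macrophages to 6.59 to 7.40 CPM in WT and 16.4 to 18.3 CPM in cKO. The part that such other cells had in the levels below was not tested, and in bulk samples fewer cells of a type and less RNA per cell cannot be told apart.

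The 131 genes together took 2.48% ± 0.0975 (SD, n = 4) of all counts in WT and 0.332% ± 0.00487 (SD, n = 4) in cKO. Without the member with the most counts, the glucose transporter gene *Slc2a3*, the shares were 2.02% and 0.267%. The level left in cKO ran from 4.75% to 17.6% of the WT level over the members, with a median of 13.97%. Log2 ratios ran from -4.24 to -2.501 with a median of -2.82, and 4 genes were at or below -4, 40 between -4 and -3, and 87 above -3. The lowest WT library was 3.51-fold to 14.7-fold above the highest cKO library, with a median of 5.97-fold. All 131 were called lower by edgeR, beside 37.5% of all genes tested and 53.4% of the 8788 genes from which they were taken, and every cKO library lay below every WT library for 56.2% of those 8788. The rule used the same contrast, so nothing is read from that count.

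**Figure D1:**
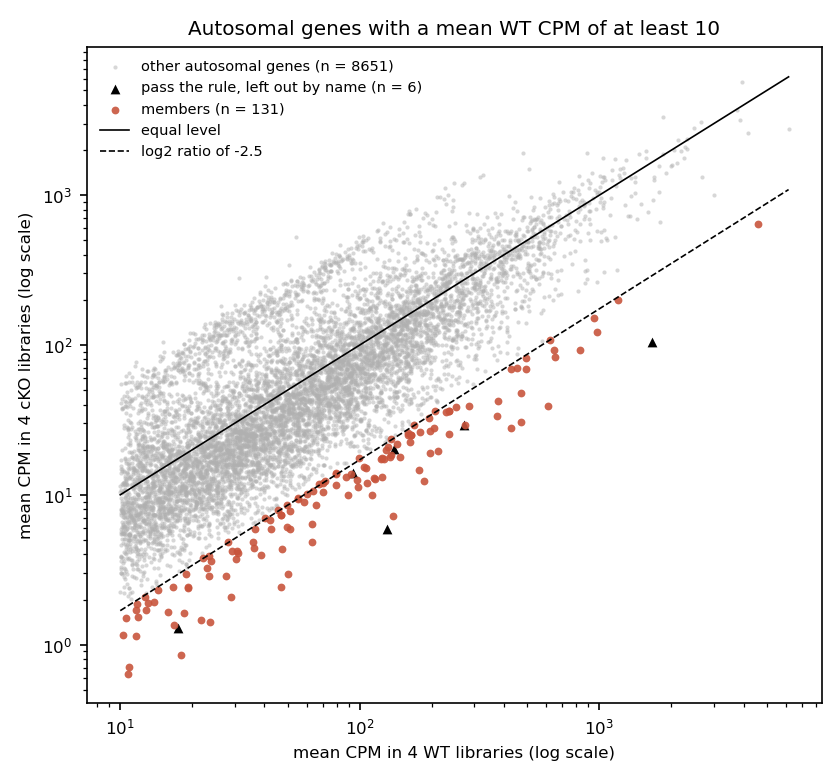
Mean CPM in the 4 cKO libraries (vertical, log scale) against mean CPM in the 4 WT libraries (horizontal, log scale) for the 8788 autosomal genes with a WT mean of at least 10 CPM. The 131 members lie along and under the dashed line at a log2 ratio of -2.5, over WT levels of 10.3 to 4602 CPM, and triangles mark the 6 genes left out by name.

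Members covered a wide range of WT levels. Their WT means ran from 10.3 to 4602 CPM with a median of 79.6 CPM, against a median of 48.1 CPM in the 8651 other genes of the pool. The WT mean was under 20 CPM for 21 members, 20 to 100 CPM for 52, 100 to 500 CPM for 49 and 500 CPM or more for 9. RefSeq classes 124 of them as protein-coding, 5 as transcribed pseudogenes (*Zfp389*, *Gsdmcl1*, *Rnls*, *Ptprv* and *Kif4-ps*) and 2 as long non-coding RNAs (*9330102E08Rik* and *Arhgap33os*). The median gene span was 16680 bp for members and 25434 bp for the other genes of the pool, and the longest annotated transcript had a median of 3074 and 3431 bases.

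Replicates agreed closely for most members. The coefficient of variation over 4 libraries had a median of 7.66% in WT and 6.68% in cKO. WT replicate 3 was the highest WT library for 72 members and WT replicate 4 the lowest for 77, and their median deviations from the WT mean of log2 CPM over the members were 0.09 and -0.09, against 0.03 and -0.02 over the other genes of the pool. The widest WT spread was 38.6%. Among the genes with the widest spread were *Dhdh*, a dihydrodiol dehydrogenase gene at 32.1, 38.2, 54.2 and 20.7 CPM in WT, and *Aym1*, at 9.23, 13.5, 17.2 and 6.99 CPM in WT.

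**Figure D2:**
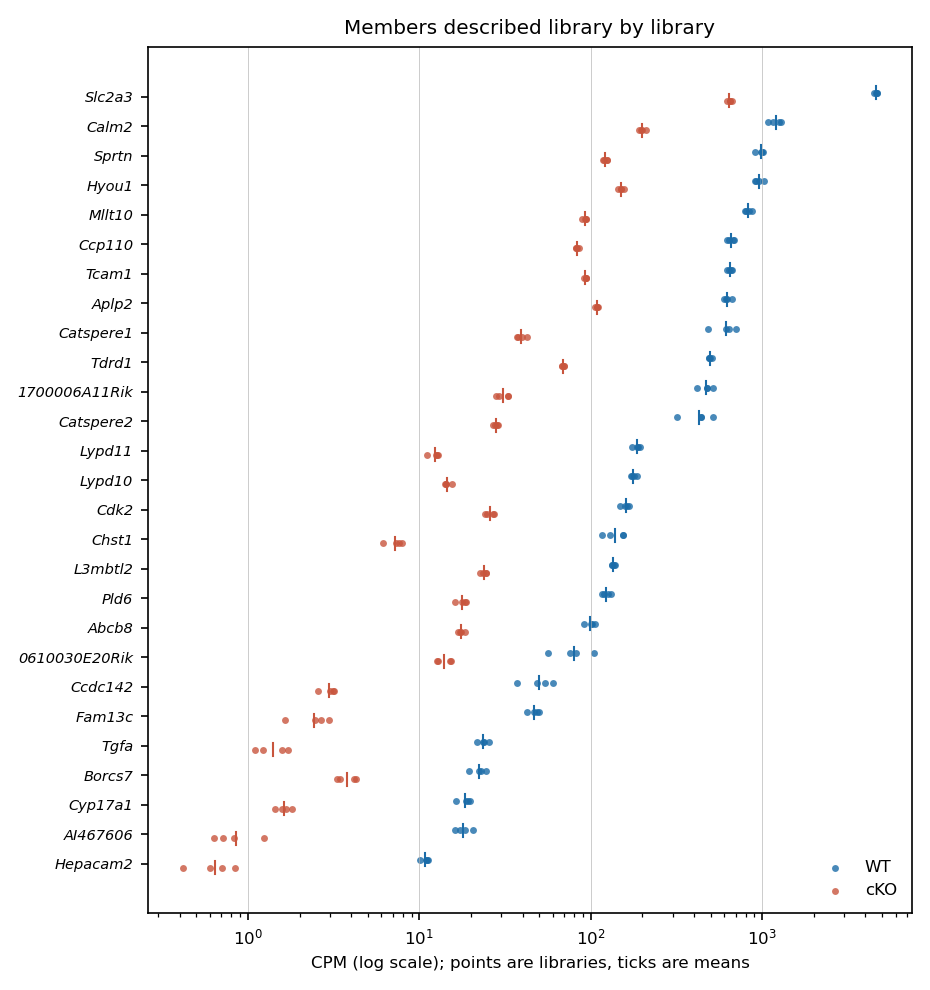
CPM (horizontal, log scale) of the 27 members described library by library, with 1 row per gene, 1 point per library (WT blue, cKO red) and a tick at the mean of each genotype. WT and cKO points are apart in every row, from *Hepacam2* at the bottom to *Slc2a3* at 4602 CPM in WT and 643 CPM in cKO at the top.

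By known function, 107 members fell into 12 groups that were assigned by hand, and 24 had no function assigned. The groups were 19 genes of ligands, receptors and signal transduction, 12 of the cell cycle, meiotic division and genome maintenance, 11 each of ion channels, transporters and calcium handling, of cell surface, matrix and secreted proteins, and of metabolic enzymes, 10 of transcription factors and zinc finger proteins, 8 of ubiquitin transfer and removal, 7 of chromatin regulators and histones, 5 each of centriole and cilium, of RNA binding and splicing, and of endoplasmic reticulum and membrane traffic, and 3 of the piRNA pathway and germ granule. The median level left in cKO was lowest for metabolic enzymes (10.2%) and chromatin regulators (11.2%) and highest for the endoplasmic reticulum and traffic group (15.8%). The 11 metabolic enzymes ran from 5.24% to 15.2%. Ranges were 12.7% to 15.4% for centriole and cilium and 13.8% to 16.1% for RNA binding and splicing. They were 13.9% to 17.1% for the piRNA pathway and 13.4% to 17.5% for the endoplasmic reticulum. These last groups hold only 3 to 5 genes, and a range tends to be narrower over fewer genes, so nothing is read from its width.

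**Figure D3:**
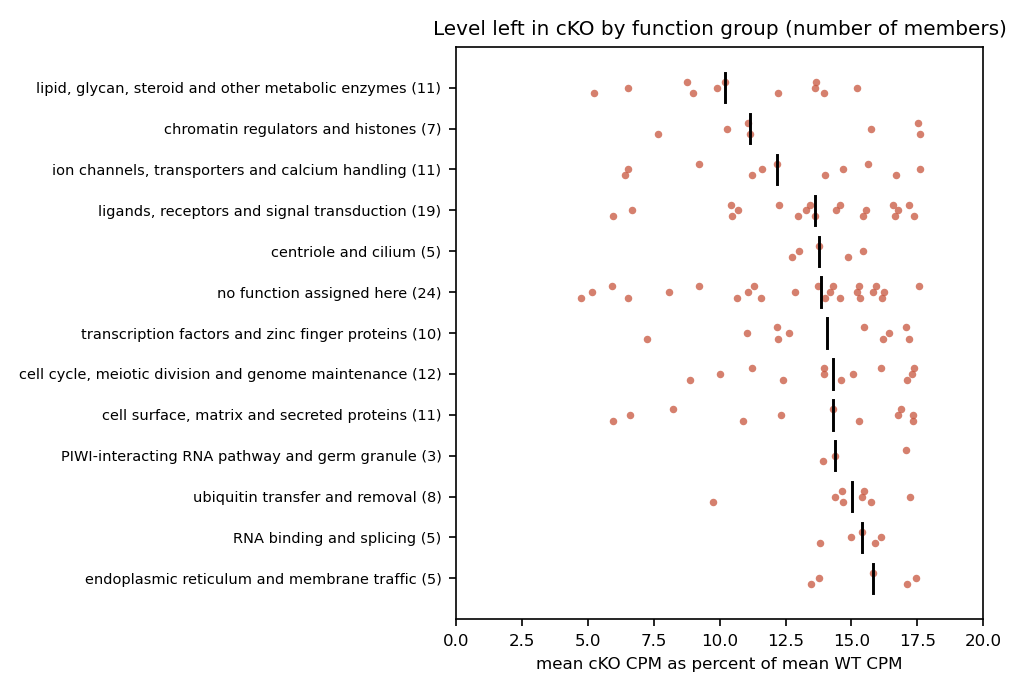
Mean cKO CPM as percent of mean WT CPM (horizontal) for every member, with 1 row per function group, 1 point per gene and a black tick at the group's median. Medians run from 10.2% in the metabolic enzymes to 15.8% in the endoplasmic reticulum and traffic group, and the rows overlap.

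Upstream sequences of 4 members are shown because A-MYB, the main activator of pachytene genes, binds the letters AACNG, and these genes, described in turn further on, differ in how the core occurs. They are from RefSeq (GRCm38.p6), the 250 bases before the start, 5′ to 3′ on the strand of the gene, with AACNG or its complement in capitals. *Chst1* (chr2:92600867-92601116, plus strand) holds 3 cores, of which 2 overlap and form AACNGTT, *Catspere1* (chr1:177808169-177808418, plus strand) and *Cdk2* (chr10:128705052-128705301, minus strand) hold 2 separate cores, and this window of *Tdrd1* (chr19:56826025-56826274, plus strand) holds 1. The other *Tdrd1* windows hold 0 (chr19:56825959-56826208) and 2 (chr19:56830462-56830711). The *Chst1* window lies inside the span of its gene (chr2:92599632-92615252). On upstream bases only, AACNGTT was in 4.03% of member windows, 3.10% of windows of the other genes of the pool and 3.80% of all promoters.
Chst1: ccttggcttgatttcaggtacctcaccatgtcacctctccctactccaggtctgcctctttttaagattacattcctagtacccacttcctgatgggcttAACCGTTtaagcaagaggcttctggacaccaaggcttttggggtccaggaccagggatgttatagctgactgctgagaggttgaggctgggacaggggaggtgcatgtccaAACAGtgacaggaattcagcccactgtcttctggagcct
Catspere1: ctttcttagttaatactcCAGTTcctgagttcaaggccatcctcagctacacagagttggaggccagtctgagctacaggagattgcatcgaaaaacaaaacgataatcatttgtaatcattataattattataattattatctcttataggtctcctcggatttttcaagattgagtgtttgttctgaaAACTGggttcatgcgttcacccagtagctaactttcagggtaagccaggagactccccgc
Cdk2: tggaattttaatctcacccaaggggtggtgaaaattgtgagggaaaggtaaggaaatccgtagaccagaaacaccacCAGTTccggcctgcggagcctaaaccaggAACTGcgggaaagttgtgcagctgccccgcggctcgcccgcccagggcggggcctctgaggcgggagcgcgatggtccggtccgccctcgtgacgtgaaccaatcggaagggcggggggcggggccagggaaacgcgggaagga
Tdrd1: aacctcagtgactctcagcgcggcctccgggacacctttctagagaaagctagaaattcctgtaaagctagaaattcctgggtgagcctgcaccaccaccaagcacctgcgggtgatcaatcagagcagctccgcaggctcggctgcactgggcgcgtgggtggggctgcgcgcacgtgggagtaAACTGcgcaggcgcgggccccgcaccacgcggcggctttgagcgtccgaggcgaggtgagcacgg

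A match of letters is a description and not a site that was seen to be bound, and shares of promoters with the core are given with the other motifs.

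The piRNA group held *Tdrd1*, *Pld6* and *Adad2*. *Tdrd1* (chr19:56826171-56870012) encodes a tudor-domain scaffold that binds methylated PIWI proteins in the nuage, the granule where piRNAs are made, and its WT libraries held 491, 508, 495 and 486 CPM. The cKO libraries held 67.7, 69.7, 70.1 and 68.3 CPM, a level of 13.9% of WT. *Pld6* (chr11:59783893-59787657), whose product cuts piRNA precursors on the outer mitochondrial membrane, stood at 127, 119, 116 and 132 CPM in WT and at 16.1, 18.6, 17.6 and 18.7 CPM in cKO. For both genes the 4 libraries of a genotype were close to each other and the lowest WT library was over 6-fold above the highest cKO library (6.93-fold and 6.21-fold). *Adad2*, a gene for a double-stranded RNA-binding protein of germ cell granules, went from 70.1 ± 8.53 to 12.0 ± 0.182 CPM (SD, n = 4).

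The fixed piRNA list gave the setting of these genes. Of its 18 genes, 14 were called lower, 2 higher and 2 not called, beside 37.5% lower over all genes tested. Of the 8788 genes from which the members were taken, 53.4% were called lower. The median log2 fold change of the list was -1.16, against -0.02 over all genes tested. That list was chosen with results of these data known, and it holds 2 members and 2 of the genes left out by name, *Piwil1* and *Tdrd5*. All of these met the rule, so their lower levels were fixed by it. *Gpat2*, *Tdrd12* and *Piwil2*, which work in the same pathway, had log2 fold changes of -1.79 (SE 0.04), -1.71 (SE 0.06) and -1.49 (SE 0.05), with adjusted p of 8.8e-14, 1.4e-12 and 2.3e-12 in edgeR, and were outside the set. *Tdrd7* and *Mael*, both granule genes, were called higher at 0.44 (SE 0.06) and 0.37 (SE 0.08), with adjusted p of 1.7e-05 and 0.00067 in edgeR. *Ddx4*, a helicase of the same granules, had a log2 fold change of 0.12 (SE 0.05) and an adjusted p of 0.067.

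The cell cycle group contained *Cdk2*, *Cks2*, *Fbxo43*, *Cenpo*, *Lin52*, *Rassf1*, *Bcl2l12*, *Sprtn*, *Nsmce3*, *Zup1*, *Mapk15* and the pseudogene *Kif4-ps*. *Sprtn* (chr8:124897771-124906161) encodes the protease that removes proteins crosslinked to DNA, and it was among the most abundant members at 1001, 1013, 911 and 989 CPM in WT. In cKO it held 119, 124, 119 and 124 CPM, 12.4% of WT. *Cdk2* (chr10:128697938-128705051), the kinase that marks telomeres and crossover sites of pachytene chromosomes, had 159, 164, 168 and 147 CPM in WT and 24.7, 26.8, 24.2 and 27.2 CPM in cKO. The genotypes were apart for both genes, by 7.34-fold and 5.41-fold from the lowest WT to the highest cKO library. *Cdk2* was the sole member in the list of meiotic telomere attachment and LINC complex genes. All 8 genes tested of that list were called lower, beside 37.5% over all genes tested and 53.4% over the 8788 genes from which the members were taken. Their median log2 fold change was -1.25, against -0.02 over all genes tested, and both figures include *Cdk2*, which the rule selected. Its partners at the telomere *Majin* and *Terb2* had log2 fold changes of -1.65 (SE 0.08) and -1.38 (SE 0.11), with adjusted p of 2.2e-10 and 2.1e-08 in edgeR, and the linker gene *Kash5* had -0.31 (SE 0.04) and 2.1e-05.

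Further genes of this group act at the meiotic divisions. *Cks2*, a small CDK-binding protein needed for the first meiotic division, went from 179 ± 7.50 to 26.1 ± 1.23 CPM, and 31.7% of its 31-base words occur in other genes. *Fbxo43*, an inhibitor of the anaphase-promoting complex, went from 89.3 ± 6.602 to 10.02 ± 0.404 CPM, and the kinetochore gene *Cenpo* from 63.3 ± 7.28 to 6.34 ± 1.01 CPM (SD, n = 4 for each). In the list of diplotene and dividing spermatocytes, which holds no member, 7 of 11 genes were called higher and 4 lower. The shares over all genes tested were 36.5% higher and 37.5% lower. Among the rest of the group, *Lin52* (a subunit of the MuvB core) and *Nsmce3* (a subunit of the SMC5/6 complex) were left at 13.9% and 17.1% of WT.

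The centriole and cilium group was led by *Ccp110* (chr7:118712515-118737024), which encodes the protein that caps the distal end of the mother centriole until a cilium forms. It held 671, 683, 639 and 625 CPM in WT and 85.2, 83.2, 82.3 and 82.5 CPM in cKO. The other 4 genes were *Dnaaf4*, for assembly of dynein arms, *Ttc8*, a BBSome subunit, *Ttc30a1*, of intraflagellar transport, and *Tchp*, a trichoplein that restrains cilium growth. They were left at 12.99% (*Dnaaf4*) to 15.4% of WT. Of the 31-base words, 57.8% of those of *Dnaaf4* and 36.5% of those of *Ttc30a1* occur in other genes, so these levels are uncertain. Of the 35 axoneme and cilium assembly genes in the fixed list, none of them a member, 12 were called higher, 15 lower and 8 not called. Over all genes tested, 36.5% were called higher and 37.5% lower, and nothing is read from the counts of this list.

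Chromatin regulators included *Mllt10*, *Phf2*, *Sap30*, *Kmt2d*, *L3mbtl2*, *Brd8dc* and the histone gene *H2bc21*. *Mllt10* (chr2:18055160-18212390), a cofactor of the H3K79 methyltransferase DOT1L, had 841, 875, 806 and 798 CPM in WT and 88.5, 93.9, 92.6 and 93.4 CPM in cKO. *Sap30*, a subunit of the SIN3 histone deacetylase complex, went from 63.3 ± 1.54 to 4.86 ± 0.179 CPM, and *Phf2*, a demethylase of the H3K9 mark, from 376 ± 13.6 to 42.0 ± 2.41 CPM. *Sap30* kept the smallest part of its WT level in this group, 7.68%. *Kmt2d*, an H3K4 methyltransferase of enhancers, had WT libraries at 155, 260, 253 and 158 CPM, a wide spread, and cKO libraries at 27.8, 39.2, 38.9 and 38.6 CPM. *L3mbtl2*, of the noncanonical Polycomb complex PRC1.6, was the member closest to the threshold and held 132, 136, 133 and 138 CPM in WT and 22.5, 24.4, 23.5 and 24.4 CPM in cKO.

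Transcription factor genes were few and weakly to moderately expressed. They were *Pou2f2* and *Pou6f1* of the POU family, *Mesp2* of the basic helix-loop-helix family, *Samd7*, the zinc finger genes *Zfp346*, *Zfp212*, *Zfp661*, *Zkscan7* and *Zbtb8a*, and the pseudogene *Zfp389*. Their WT levels ran from 12.6 to 129 CPM and 7.23% to 17.2% of that was left in cKO. *Pou6f1* went from 129 ± 5.56 to 20.01 ± 0.630 CPM and *Pou2f2* from 49.8 ± 8.19 to 6.07 ± 0.695 CPM. Genes with symbols of zinc finger families were 6 of the 131 members (4.58%) and 236 of the 8651 other genes of the pool (2.73%). Of the 22 meiotic transcription factors in the fixed list, 11 were called higher, 8 lower and 3 not called, beside 36.5% and 37.5% over all genes tested. None was a member, but 1 of them met the rule and was left out by name. *Mybl1*, which encodes A-MYB, had a log2 fold change of -1.30 (SE 0.06, adjusted p = 4.5e-11 in edgeR).

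RNA-binding members were *Pcbp1*, *Hnrnpl*, *Srek1*, *Rsrp1* and *Kri1*. *Hnrnpl* and *Srek1* take part in splicing, *Pcbp1* binds poly(C) tracts of mRNA, and *Kri1* is needed for ribosome assembly. *Hnrnpl* went from 428 ± 45.2 to 68.9 ± 2.85 CPM and *Pcbp1* from 285 ± 10.8 to 39.4 ± 1.32 CPM. *Srek1* (159 ± 43.0 CPM) and *Rsrp1* (236 ± 49.7 CPM) varied more among WT libraries, relative to their means, than the other 3 genes of the group, and both were lowest in WT replicate 4. In the list of germ cell translation control, which holds no member, 8 of 18 genes were called higher and 5 lower, beside 36.5% and 37.5% over all genes tested.

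Ion channels, transporters and calcium handling made up the group with the most RNA, 7477 CPM summed over 11 genes in WT and 999.5 CPM in cKO. *Slc2a3* (chr6:122727809-122802363), which encodes the glucose transporter GLUT3, gave most of it and was the most abundant member. Its WT libraries held 4461, 4651, 4686 and 4608 CPM and its cKO libraries 620, 644, 645 and 663 CPM, which left 13.98% of WT. *Calm2* (chr17:87433401-87446935), a gene that encodes calmodulin, came next at 1294, 1157, 1085 and 1244 CPM in WT and 211, 191, 197 and 199 CPM in cKO. For both genes the spread within a genotype was small beside the gap between genotypes. A share of 18.1% of the 31-base words of *Calm2* transcripts occurs in other genes.

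*Catspere1* and *Catspere2* lie next to each other on chromosome 1 (chr1:177808419-177962253 and chr1:177983155-178172707), 20902 bp apart and on the same strand. They encode epsilon subunits of CatSper, the calcium channel of the sperm tail that hyperactivation requires. *Catspere1* had 640, 615, 704 and 483 CPM in WT and 42.5, 37.3, 37.6 and 39.5 CPM in cKO. *Catspere2* had 438, 438, 513 and 318 CPM in WT and 28.8, 28.3, 26.9 and 27.6 CPM in cKO. The WT libraries of both genes were highest in replicate 3 and lowest in replicate 4, and the cKO level was 6.42% and 6.54% of WT. Of their 31-base words, 36.7% and 23.1% also occur elsewhere, most often in the other gene of the pair, so the split of reads between them is uncertain. The pore subunits *Catsper3* and *Catsper4*, from the list of spermatid markers, were called higher, at log2 fold changes of 2.17 (SE 0.07) and 2.25 (SE 0.06) with adjusted p of 5.9e-13 and 8.7e-14 in edgeR.

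The other members of the group were *Pkd2l1*, a TRP-type cation channel, *Cacna1i*, a T-type calcium channel, *Jph2*, a junctophilin that ties the plasma membrane to calcium stores, *Slc47a2*, an exporter of organic cations, *Mlc1*, *Tmem30c* and *Abcb8*, an ABC transporter of mitochondria. *Abcb8* was next to *L3mbtl2* at the threshold, with 101, 106, 99.9 and 91.1 CPM in WT and 17.5, 18.3, 16.7 and 17.3 CPM in cKO. *Jph2* had the lowest WT level of all members, 10.3 ± 0.934 CPM, and 1.15 ± 0.313 CPM in cKO. *Pkd2l1* went from 47.5 ± 8.38 to 4.38 ± 0.701 CPM and *Slc47a2* from 97.9 ± 10.5 to 11.4 ± 0.583 CPM (SD, n = 4).

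Genes of the endoplasmic reticulum and membrane traffic were *Hyou1*, *Syvn1*, *Ccdc47*, *Vamp5* and *Borcs7*. *Hyou1* (chr9:44379490-44392369), a chaperone of the endoplasmic reticulum, held 902, 951, 1027 and 924 CPM in WT and 144, 156, 151 and 151 CPM in cKO. *Syvn1*, the ubiquitin ligase of the degradation pathway of that organelle, went from 126 ± 12.7 to 17.3 ± 1.09 CPM. *Borcs7*, of the complex that moves lysosomes, was at 22.1, 23.0, 24.4 and 19.4 CPM in WT and at 4.29, 3.43, 3.31 and 4.17 CPM in cKO, and it is described because it lies 16906 bp from *Cyp17a1* with no other listed gene between. The genotypes were apart for all 5 genes, as the rule required.

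Ubiquitin genes were *Rnf144b*, *Rnf112*, *Trim7* and *Trim11* (ligases), *Gmcl1*, *Kctd7* and *Fbxw17* (subunits or adaptors of ligases) and *Stambp* (a protease that trims ubiquitin from cargo of endosomes). *Gmcl1*, the mouse counterpart of the *germ cell-less* gene of flies, was the most abundant at 452 ± 20.6 CPM in WT and 70.0 ± 3.33 CPM in cKO. *Rnf144b* went furthest, from 196 ± 3.94 to 19.1 ± 0.543 CPM. The other 6 genes were left at 14.4% to 17.2% of WT. Genes with symbols of ubiquitin ligase families were 5 of 131 members (3.82%) and 135 of 8651 other genes of the pool (1.56%), a description with no test. The 5 are *Rnf144b*, *Rnf112*, *Trim7*, *Trim11* and, from the cell cycle group, *Fbxo43*, which was counted by its symbol.

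The metabolic enzymes were *Chst1*, *Mgll*, *Cers3*, *Cyp17a1*, *Cyp2u1*, *Sgpp2*, *Sdr42e1*, *Rnls*, *Dhdh*, *Ilvbl* and *Aadacl2fm2*. *Chst1* (chr2:92599632-92615252), which sulfates galactose in keratan sulfate, had 130, 153, 153 and 116 CPM in WT and 6.14, 7.29, 7.90 and 7.64 CPM in cKO. That was 5.24% of WT, and its 14.7-fold gap between the lowest WT and the highest cKO library was the widest of the set. Several enzymes act on lipids: *Mgll*, which cleaves monoacylglycerols, went from 373 ± 13.4 to 33.6 ± 0.790 CPM, and *Cers3*, the ceramide synthase for very long acyl chains that spermatocytes use, from 470 ± 25.4 to 48.0 ± 1.14 CPM. *Sgpp2*, a phosphatase of sphingosine 1-phosphate, went from 35.8 ± 2.17 to 4.87 ± 0.686 CPM.

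*Cyp17a1* (chr19:46667165-46673000), a steroid hydroxylase of androgen synthesis, is a marker of Leydig cells and not of spermatocytes. It stood at 18.7, 16.3, 19.2 and 19.7 CPM in WT and at 1.43, 1.66, 1.80 and 1.58 CPM in cKO. Of the 11 Leydig cell markers, 9 were called lower, 1 higher (*Scarb1*) and 1 not called (*Lhcgr*), and their median log2 fold change was -2.71, beside 37.5% lower and a median of -0.02 over all genes tested. Both figures include *Cyp17a1* itself and *Insl3*, a gene left out by name, which the rule selected. The call of *Scarb1* was lost without WT replicate 1, without cKO replicate 1 and with scaling by library size. *Cyp11a1*, *Hsd3b1* and *Star*, further genes of steroid synthesis, had log2 fold changes of -2.94 (SE 0.16), -2.90 (SE 0.19) and -2.08 (SE 0.12), with adjusted p of 5.9e-10, 3e-09 and 1.1e-09 in edgeR, from WT levels of 7.62, 5.56 and 8.59 CPM. The summed level of the list was 116 to 135 CPM in WT and 55.5 to 57.6 CPM in cKO, and no marker of it was at 0 in all libraries. The part of Leydig cell RNA in the values of *Cyp17a1* was not tested.

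Signalling genes made up the largest group with an assigned function and had low WT levels, with a median of 30.4 CPM. Ligands and hormone precursors were *Tgfa*, *Prok2*, *Pomc* and *Agt*, and receptors were *Nmbr*, *Acvr1b*, *Lair1* and the pseudogene *Ptprv*. *Tgfa* (chr6:86195038-86275744), which encodes a ligand of the EGF receptor, had 21.8, 25.4, 23.6 and 23.7 CPM in WT and 1.23, 1.10, 1.71 and 1.58 CPM in cKO, or 5.95% of WT. *Prok2*, a prokineticin, was the most abundant ligand at 194 ± 7.34 CPM in WT and 32.6 ± 1.06 CPM in cKO. The receptors were left at 12.3% (*Nmbr*, of neuromedin B) to 16.6% (*Lair1*, an inhibitory receptor of immune cells). *Acvr1b*, an activin receptor, was left at 15.6%.

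Inside the cell, *Myd88*, *Lat2*, *Skap2* and *Frs3* encode adaptors, *Mark2* a kinase of polarity, *Cdc42ep3* and *Cdc42ep4* effectors of CDC42, *Gem* a small GTPase, *Dact1* a regulator of Wnt signals and *C2cd4b* a C2-domain protein, and *Arhgap20* was also in this group. *Cdc42ep3* was the most abundant of the signalling group, at 493 ± 49.5 CPM in WT and 82.0 ± 2.28 CPM in cKO, and *Mark2* went from 274 ± 31.2 to 29.4 ± 1.64 CPM. *Lat2* kept 6.68% of its WT level of 21.7 CPM. For *Lat2* and *C2cd4b*, 36.3% and 47.2% of exon bases overlap a gene on the other strand, and strand use in counting is not given in the sources used here. In the list of Wnt, BMP, Notch and hedgehog signalling genes, which holds no member, 14 of 40 were called higher, 12 lower and 14 not called. Of all genes tested, 36.5% were called higher and 37.5% lower.

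Cell surface, matrix and secreted proteins were encoded by *Lypd10*, *Lypd11*, *Hepacam2*, *Tcam1*, *Aplp2*, *Elfn2*, *Fbn2*, *Ibsp*, *Glipr1l2*, *Prss44* and *Tmprss12*. *Tcam1* (chr11:106273020-106288737), a testis adhesion molecule, had 643, 621, 668 and 661 CPM in WT and 93.6, 90.9, 93.2 and 93.5 CPM in cKO. *Aplp2* (chr9:31149557-31211848), a relative of the amyloid precursor protein, had 611, 597, 664 and 621 CPM in WT and 106, 108, 110 and 108 CPM in cKO. *Hepacam2* (chr6:3457089-3498322), of the immunoglobulin superfamily, was far weaker at 11.2, 10.9, 10.03 and 11.1 CPM in WT and 0.706, 0.598, 0.416 and 0.845 CPM in cKO. These 3 genes kept 14.3%, 17.3% and 5.94% of WT. *Fbn2*, a fibrillin of the extracellular matrix, went from 236 ± 21.8 to 25.6 ± 1.91 CPM, and the serine protease genes *Prss44* and *Tmprss12* were left at 16.9% and 17.3%.

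*Lypd10* and *Lypd11*, genes of the Ly6/uPAR family, face each other tail to tail on chromosome 7 (chr7:24709202-24714535 and chr7:24715031-24726908), with their ends 496 bp apart. *Lypd10* had 185, 171, 174 and 178 CPM in WT and 14.4, 14.3, 14.04 and 15.6 CPM in cKO. *Lypd11* had 188, 175, 193 and 187 CPM in WT and 12.6, 12.7, 11.05 and 12.8 CPM in cKO. The pair was alike in both genotypes, with 8.23% and 6.61% of WT left, and 19.7% and 18.1% of their 31-base words occur in other genes. Both genes have a start at or near the outer end of the pair, and the windows before these starts hold the letters CCAAT (or ATTGG on the other strand), the box bound by NF-Y, several times. A further *Lypd11* window inside the gene (chr7:24724291-24724540) holds none.

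The 250 bases before each start are shown for that reason, from RefSeq on GRCm38.p6, 5′ to 3′ on the strand of the gene, with every CCAAT or ATTGG in capitals. The window is chr7:24709009-24709258 on the plus strand for *Lypd10* and chr7:24726909-24727158 on the minus strand for *Lypd11*.
Lypd10: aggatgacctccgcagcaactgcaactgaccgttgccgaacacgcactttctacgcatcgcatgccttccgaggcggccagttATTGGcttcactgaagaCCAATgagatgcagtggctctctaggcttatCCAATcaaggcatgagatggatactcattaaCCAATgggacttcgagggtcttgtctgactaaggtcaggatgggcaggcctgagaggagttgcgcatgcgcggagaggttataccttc
Lypd11: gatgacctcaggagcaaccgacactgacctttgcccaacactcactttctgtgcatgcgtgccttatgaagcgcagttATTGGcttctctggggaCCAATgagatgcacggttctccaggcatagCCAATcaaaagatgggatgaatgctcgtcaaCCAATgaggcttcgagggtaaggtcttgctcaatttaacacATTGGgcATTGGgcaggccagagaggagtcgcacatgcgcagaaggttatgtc

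The boxes start at -167, -150, -119 and -88 in *Lypd10* and at -172, -155, -125, -94, -53 and -46 in *Lypd11*, counted back from the transcription start. In a global alignment 75.4% of 260 aligned columns were identical. At least 4 such boxes in 250 bases were found in 4 of 124 member windows (3.23%), 1.62% of the windows of the other genes of the pool and 0.840% of all promoters, a limit taken from the *Lypd10* window. At least 3 were found in 3.23% of member windows and 4.62% of those of the other genes of the pool, and at least 2 in 14.5% and 13.1%. The remaining member windows with 4 or more belonged to *Kctd7* and *Hnrnpl*.

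Several of the members with the least RNA left have no function assigned here. *AI467606* (chr7:127090780-127094049) had the lowest ratio of all, with 17.1, 18.3, 20.5 and 16.04 CPM in WT and 0.716, 0.8286, 1.25 and 0.631 CPM in cKO, which was 10 to 27 counts per cKO library. *Fam13c* (chr10:70439972-70558736) had 49.8, 48.7, 46.6 and 42.5 CPM in WT and 1.64, 2.65, 2.96 and 2.46 CPM in cKO. Both kept about 5% of WT (4.75% and 5.17%), and the cKO libraries spread more in relative terms than those of abundant members.

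*Ccdc142* (chr6:83101516-83109121) had 48.6, 54.3, 60.5 and 36.9 CPM in WT and 2.57, 2.99, 3.12 and 3.16 CPM in cKO. Of its 31-base words, 67.9% occur in another gene model, so its level is uncertain. *1700006A11Rik* (chr3:124400990-124426039) was the most abundant gene of the unassigned group, at 473, 474, 519 and 414 CPM in WT and 32.8, 32.8, 29.2 and 28.1 CPM in cKO. It kept 6.53% of WT. At the other end, *0610030E20Rik* (chr6:72347034-72353162) lay just inside the threshold, at 75.4, 82.5, 104 and 56.4 CPM in WT and 12.9, 12.7, 15.2 and 15.1 CPM in cKO.

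The rest of the unassigned genes were *2610001J05Rik*, *9430015G10Rik*, *4930579G24Rik*, *Tmem18*, *Lrrc61*, *Pnmal1*, *Gsdmcl1*, *9330102E08Rik*, *Fam181a*, *Meak7*, *Ccdc77*, *1700102P08Rik*, *Fam221a*, *Iqcc*, *Ankrd10*, *Arhgap33os*, *Aym1*, *Rusf1* and *Inafm1*. The most abundant of these were *1700102P08Rik* at 236 ± 11.5 CPM and *9430015G10Rik* at 211 ± 46.1 CPM in WT, with 36.0 ± 2.22 and 19.5 ± 1.75 CPM in cKO (SD, n = 4).

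The threshold did not mark a break in the values. The 3 members nearest to it had ratios of -2.501 (*L3mbtl2*, *Abcb8* and *0610030E20Rik*), and the 3 genes nearest outside it that met the other conditions were *Cdkl4* at -2.496, *Zfp939* at -2.494 and *Mgat5* at -2.493. *Cdkl4* went from 127 to 22.4 CPM, *Mgat5* from 130.4 to 23.1 CPM and *Zfp939* from 19.005 to 3.29 CPM. With a limit of -2 the rule would have taken 342 genes, and with -3 it would have taken 44.

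Lists of germ cell stages and other testis cells were set beside the members. Their counts stand beside 36.5% called higher and 37.5% lower over all genes tested. Over the 8788 autosomal genes with a WT mean of at least 10 CPM, 53.4% were called lower. Among 15 markers of pachytene spermatocytes, 12 were called lower and 3 higher, with a median log2 fold change of -1.01, and 3 of these markers are genes left out by name. *Ldhc* and *Hspa2*, abundant pachytene transcripts, had log2 fold changes of -0.19 (SE 0.08) and -0.27 (SE 0.06), with adjusted p of 0.042 and 0.00073 in edgeR. Of the 15 leptotene and zygotene genes, 1 of them left out by name, 7 were called higher and 7 lower. Of 13 genes of undifferentiated spermatogonia, again with 1 left out by name, 6 were called higher and 3 lower. The 6 became 3 without WT replicate 2, 3 without cKO replicate 2 and 2 without cKO replicate 3. All 16 markers of round and elongating spermatids were called higher, with a median log2 fold change of 2.16, and all 14 Sertoli cell markers were called lower, with a median of -1.39. Of the recombination lists, strand invasion had 9 of 13 and crossover maturation 8 of 12 genes called lower, with 3 called higher in each. Double-strand break formation had 6 of 10 called higher and 4 lower, and its list holds 1 gene left out by name. The part that a different make-up of the cKO fractions had in the levels of the members was not tested.

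**Figure D4:**
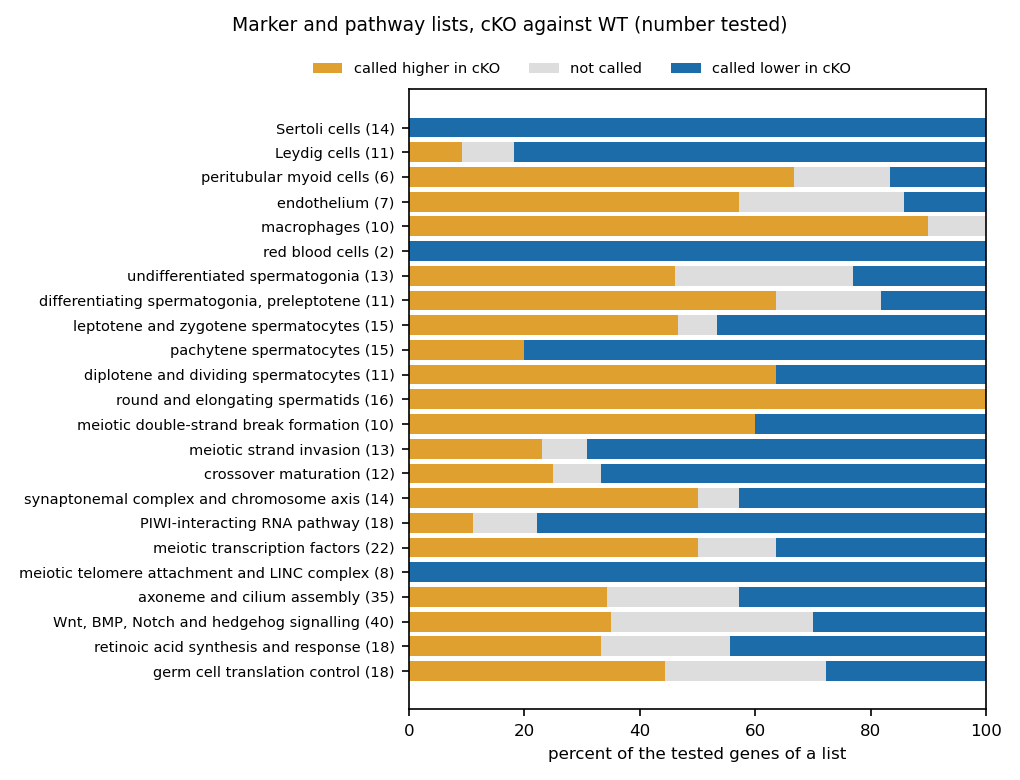
Percent of the tested genes of each list (horizontal) that edgeR called higher (orange), lower (blue) or neither (grey) in cKO, with the number tested in brackets. Spermatid markers are all higher and Sertoli cell markers and telomere attachment genes all lower, beside 36.5% higher and 37.5% lower over all genes tested.

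Members lay on 18 of the 19 autosomes. Chromosome 6 held 18 members, 4.30% of its 419 genes in the pool, followed by share by chromosome 15 with 11 of 368 (2.99%). By number, chromosome 7 came next, with 16 of 685 (2.34%). Chromosome 14 had 0 of 314 and chromosome 16 had 1 of 300. Of these pairs of members, 3 were direct neighbours: *Catspere1* with *Catspere2*, *Lypd10* with *Lypd11*, and *Cyp17a1* with *Borcs7*. A total of 25 pairs lay within 1000000 bp of each other, among them *0610030E20Rik* and *Vamp5*, 14887 bp apart, and *Tgfa*, *Pcbp1* and *Gmcl1* on chromosome 6. Neighbouring and close pairs were not counted for the other genes of the pool, so nothing is read from these numbers of pairs.

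Start regions shared with another gene were counted next. Only protein-coding genes on the other strand were counted, where the 2 starts point away from each other. Such a gene started within 1000 bp of 8 of the 124 protein-coding members (6.45%) and of 1065 of 8577 other protein-coding genes of the pool (12.4%). None of the 8 partners was a member, 5 were called lower, 2 higher and 1 not called. The share called lower was 37.5% over all genes tested and 53.4% over the 8788 genes from which the members were taken. *Exoc8*, which starts 181 bp from *Sprtn*, was called lower at a log2 fold change of -1.53 (adjusted p = 1e-11 in edgeR). *Vps50*, which starts 84 bp from *Hepacam2*, was called higher at 1.29 (adjusted p = 5.2e-11 in edgeR).

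Promoter windows of 250 bases before and 50 after the start were read from RefSeq (GRCm38.p6) for 99 members, which have 124 windows. Median GC content was 58.8% in members, 60.7% in the other genes of the pool and 52.7% in all promoters. The letters AACNG, the core bound by A-MYB, were searched on both strands and were in 84.7% of member windows, 78.9% of windows of the other genes of the pool and 80.3% of all promoters. Limited to the 250 bases before the start, the shares were 74.2% in members, 73.0% in the other genes of the pool and 74.2% in all promoters. The ETS core CCGGAAG was in 9.68% of member windows and in 19.9% of those of the other genes of the pool, against 8.86% of all promoters. For genes at a ratio limit of -2 its share was 16.5%. In members, the other genes of the pool and all promoters, in that order, the GC box GGGCGG was in 53.2%, 61.1% and 35.7%, and the RFX motif GTTGCC in 19.4%, 14.1% and 12.5%. In the same order, the CCAAT box was in 38.7%, 38.2% and 37.4%, and the TATA box TATAAA in 10.5%, 6.61% and 13.6%. Several windows can belong to 1 gene, the longer motif AACNGTT contains the core, and these shares carry no test.

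**Figure D5:**
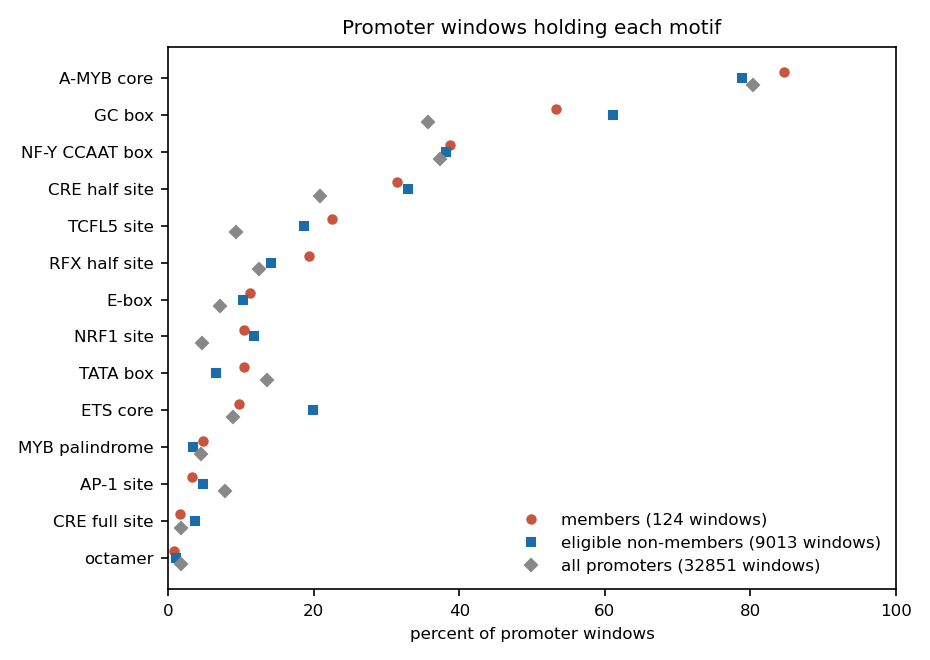
Percent of promoter windows (horizontal) that hold each of 14 motifs on either strand, for members (red, 124 windows), the other genes of the pool (blue, 9013 windows) and all promoters (grey, 32851 windows). The A-MYB core is the most frequent in members at 84.7%, and the ETS core shows members (9.68%) under the other genes of the pool (19.9%).

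Levels corrected for transcript length gave much the same picture. In TPM, the median log2 ratio of the members was -2.85, over a range of -4.26 to -2.16, and 125 of the 131 were at -2.5 or lower. The other 6 were *Iqcc* (-2.16), *Ttc8* (-2.33), *Skap2* (-2.41), *0610030E20Rik* (-2.42), *Lair1* (-2.45) and *Tmem30c* (-2.47). Listed genes held 79.6% of the TPM of WT libraries and 88.4% of the TPM of cKO libraries. Besides *Ccdc142*, over 50% of the 31-base words were shared with other genes for *Dnaaf4* (57.8%) and *Gsdmcl1* (56.7%), and 118 members shared under 10%. Exons of 44 members overlapped a gene on the other strand, none of them over 50% of their length.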

How the data were processed

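The authors quantified reads with Salmon, summed transcripts to genes with tximport on mm10 annotation. The deposited values are estimated counts and TPM of the 4 *Arid1a* WT and 4 *Arid1a* cKO libraries. Another deposited table holds fold changes and p-values of the authors' own DESeq2 comparison and was not used. The number of per-sample columns that could not be mapped was 0. Depth was 15850961 to 22044507 counts per library. CPM was count over library total. Estimated counts were rounded to whole numbers (whole counts had been assumed when the design was set), and genes whose counts reached 10 in all were compared between genotypes in edgeR 4.0.16 (TMM scaling, glmQLFit, glmQLFTest, genotype only, Benjamini-Hochberg adjusted p of 0.05) in R 4.3.3. The fit was checked on simulated data in which few genes changed, equally many up and down. Most genes differ in these libraries, so that check does not bear on the scaling or the calls here. RefSeq records of GRCm38.p6, the patch release of mm10, gave symbols and coordinates for 21036 of 21058 genes, and GENCODE transcripts the 31-base words. Python 3.11.15, pandas 2.3.3 and, for plots, matplotlib 3.10.9 were used.

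The members, the lists and the function groups were chosen with earlier results of these data known. Values in every library are given for the 10 members with the highest WT CPM, the 10 with the lowest ratio, members in a list, the 3 nearest inside the threshold, and neighbouring members. Other members were described by function with their values seen. The alternatives were DESeq2 1.42.0, library size without TMM, limma 3.58.1 on log2 TPM, other filters and limits, a replicate block, other promoter windows and each library left out. The ± values are SD over 4 libraries.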

Additional observations from a re-analysis of the deposited data

Results flagged for a closer look

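A value in 1 of the 58 groups of 4 libraries examined stood apart from the other 3 of its group. *Lypd11* in cKO replicate 3 was at 11.05 CPM, against 12.6 to 12.8 CPM in the other cKO libraries, and its gap was 0.861 of the group's range, above Dixon's critical value for 4 values. About 1 group in 20 is marked by chance, which is 2.9 of 58. All 4 cKO values were far under the lowest WT library of 175 CPM.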

How the results depend on the processing

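The number of members, 131, was 97 with a pseudocount of 1, 104 on TMM-scaled CPM, 135 on TPM (116 of them shared), 149 and 110 with WT minimums of 5 and 20 CPM, and 118 to 140 when each library was left out. It was 342 at a ratio of -2 or less and 44 at -3 or less. Without WT replicates 3 and 4, an alternative chosen after seeing the data, it was 126, of which 123 were shared. The members' share was 2.08% of TPM in WT and 0.251% in cKO, and 2.02% and 0.267% of counts without *Slc2a3*. Leaving out a library gave 2.45% to 2.52% in WT and 0.329% to 0.333% in cKO. The A-MYB core was in 74.2% of member windows on upstream bases only, beside 73.0% for the other genes of the pool and 74.2% for all promoters, and the ETS core in 16.5% at a ratio of -2 or less.

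Genes called numbered 6152 to 6516 higher and 6379 to 6649 lower when each library was left out, and *Arid1a* had -0.55 to -0.44. Of the list genes, 113 to 122 were then called higher and 126 to 137 lower, against 120 and 136. The 432 alternative values of the 27 members described by library ran from -4.51 to -2.20 on the log2 scale, and since the same libraries chose these genes, their direction was fixed by the rule. Scaling by library size in place of TMM moved the median over all genes from -0.02 to -0.12.

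Same-numbered WT and cKO libraries did not deviate together (correlations of 0.033, 0.035, 0.036 and -0.030), so they share only a number. With the replicate number as a block, 6429 genes were called higher and 6671 lower, and *Arid1a* had -0.50.

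Limits are the estimated counts of genes with shared sequence, the low cKO counts of the weakest members (9 to 13.8 counts for *Hepacam2*) and the make-up of the fractions, whose part was not tested.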
